A study of Rattus norvegicus with 9 samples.

Results

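The endothelin and angiotensin genes described here are Edn1, Ece1, Ednra, Ednrb, Agt, Agtr1a and Ace, picked by name as the ligands, processing enzymes and receptors of the 2 peptide systems. Of these 7 genes, 6 had a row among the 26407 rows of the deposited expression table; Ace had none and was not analysed here. The levels came from bulk RNA sequencing of S31 cells, wild-type primary vascular smooth muscle cells from the cardiac microvessels of male Wistar Kyoto rats. All cultures were starved of serum for 48 h. The 3 control libraries (columns LH-NS) came from cells given fresh serum-free medium and harvested 24 h later, and 3 libraries each came from cells given 25 ng/ml recombinant rat PDGF-BB (platelet-derived growth factor BB) or 25 ng/ml recombinant human IGF-1 (insulin-like growth factor 1). The sample records and the table name the treated sets in opposite ways. The records titled PDGF-BB, with harvest at 48 h, point to the columns named IGF-NS, and the records titled IGF-1, with harvest at 24 h, point to the columns named PDGF-NS. The treated sets are therefore called here by their columns, IGF-NS and PDGF-NS, and no difference is assigned to a growth factor. No control at 48 h was used, so for the set harvested at 48 h growth factor and time cannot be told apart. The same holds for every difference between the treated sets, whose recorded harvest times differ. All cells were 1 primary isolate, and the labels do not say whether the 3 libraries of a set were grown as separate cultures. The p-values therefore reflect the spread among these libraries alone, which may be technical.

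Endothelin-1 is made as a long precursor that furin-like proteases and then endothelin-converting enzyme cut to the active peptide, and in a vessel its main source is the endothelium. Smooth muscle answers through the type A receptor, coupled to Gq and other G proteins, with contraction and growth, while the type B receptor of the endothelium favours relaxation and clears the peptide. Angiotensinogen is cut in steps, the last by angiotensin-converting enzyme, to angiotensin II, which constricts vessels through the type 1 receptor, and aminopeptidases shorten the peptide further.

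Levels are FPKM (sequenced fragments scaled by library size and by transcript length), so that levels of different genes can be set side by side. Differences are on the log2(FPKM + 1) scale from limma, which understates the change of genes near 0, and a gene is called where the adjusted p (Benjamini-Hochberg over the 11376 genes that averaged 1 FPKM or more) is under 0.05. Of the 6 measured genes, 4 reached that mean (Edn1, Ece1, Ednra and Agtr1a), while Ednrb and Agt did not. FPKM sums lay between 616765 and 748000 per library, with 11047 to 11348 genes at 1 FPKM or more. The summed level of 9 smooth muscle markers was 2320 to 3320 FPKM in control, 505 to 531 in the IGF-NS libraries and 285 to 353 in the PDGF-NS libraries, with none at 0 in all libraries. Most of it was Tagln, at means of 2110, 358 and 211 FPKM. Of the 8 tested markers, 6 fell and 0 rose in IGF-NS, beside 7.48% of all tested genes called lower. In PDGF-NS 6 fell, beside 10.2%, and 1 rose, Des (log2 1.30, adjusted p = 0.00036). The summed level of 7 fibroblast markers was 310 to 504, 1910 to 2060 and 864 to 1360 FPKM, with Tcf21 at 0 in all 9 libraries. Most of it was Lum, at means of 340, 1790 and 1060 FPKM. Of the 5 tested markers, 4 rose in each treated set, beside 17.4% and 20.7% of all tested genes called higher. Pdpn passed in neither set (log2 -0.14 and -0.24, adjusted p = 0.9 and 0.8). The part of these shifts in the results below was not tested. In bulk samples, fewer cells of a type and less RNA per cell cannot be told apart.

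The ligand and its main smooth muscle receptor moved in opposite directions. Edn1 was about 9.43-fold lower in IGF-NS and 5.47-fold lower in PDGF-NS than in control, and Ednra was 6.62-fold and 10.2-fold higher, as ratios of mean FPKM. Agtr1a was 3.92-fold and 3.59-fold higher. Ece1 was higher in PDGF-NS than in both other sets, and Ednrb was listed above 0 in PDGF-NS libraries alone. Against control, 3 of the 4 tested genes were called in IGF-NS, where 24.9% of all tested genes were called (17.4% higher and 7.48% lower), and all 4 in PDGF-NS, where 31% were called (20.7% higher and 10.2% lower). In IGF-NS 2 of them were higher and 1 lower, and in PDGF-NS 3 were higher and 1 lower. Between the treated sets 2 of the 4 (Ece1 and Ednra) were called, both higher in PDGF-NS, where 15.9% of all tested genes were called (8.33% higher and 7.55% lower). Both contrasts against control use the same 3 control libraries. Over all tested genes the median difference was 0.15 for IGF-NS and 0.13 for PDGF-NS against control, and -0.02 between the treated sets, on the log2 scale. The calls over all genes split into 1976 higher and 851 lower for IGF-NS against control (1144 and 1220 after median ratio scaling) and into 2355 and 1166 for PDGF-NS (1754 and 1685). Between the treated sets they split into 948 higher and 859 lower in PDGF-NS (737 and 1480 after rescaling to a common sum). Median ratio scaling brought the 2 medians against control to 0.01, and quantile normalization to 0.02 and 0.00; a common sum brought that of PDGF-NS against control to 0.00 and that between the treated sets to -0.14. After median ratio scaling the log2 differences from control in IGF-NS and PDGF-NS were -2.79 and -2.22 for Edn1, 2.41 and 3.05 for Ednra, and 1.25 and 1.17 for Agtr1a.

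**Figure D1:**
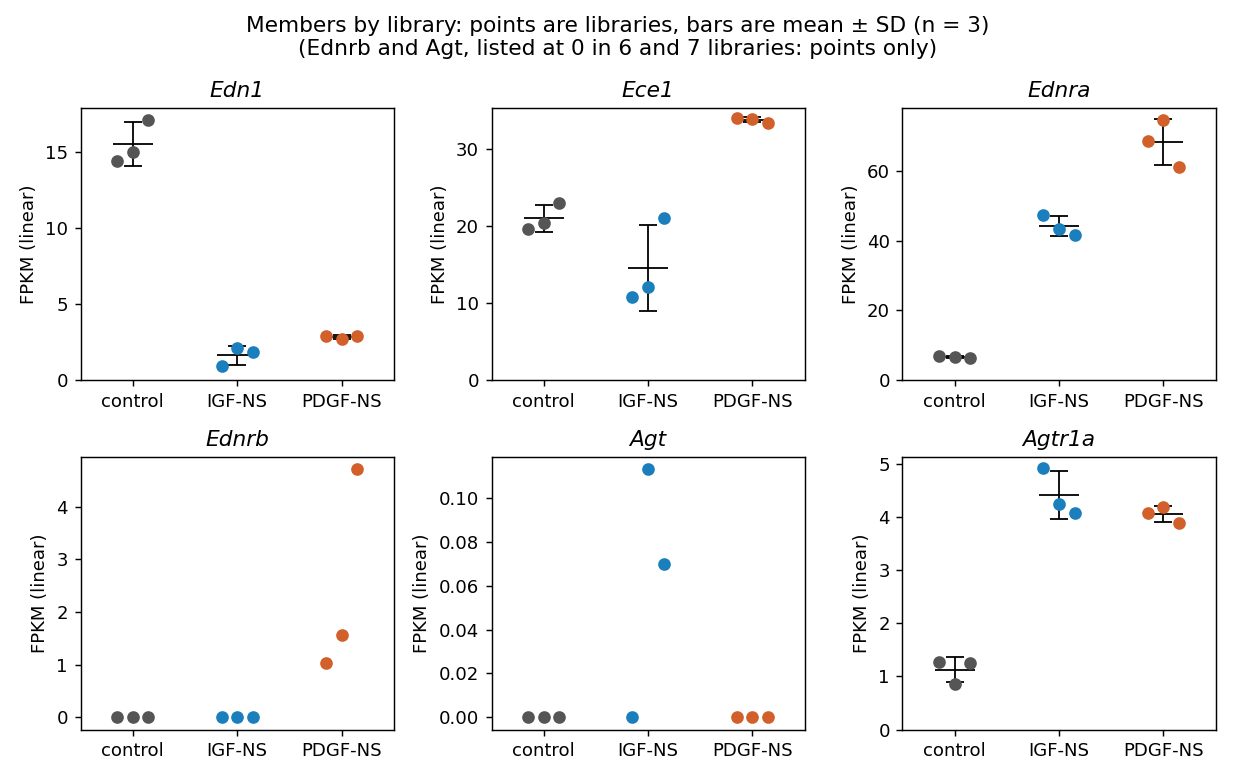
FPKM of the 6 measured genes in each library (y axis, linear, a scale of its own per gene) by set (x axis); points are libraries, and black bars are mean ± SD of 3 libraries, left out for Ednrb and Agt, which were listed at 0 in 6 and 7 libraries. Edn1 was lower and Ednra and Agtr1a were higher in every treated library than in every control library.

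Edn1 (ENSRNOG00000014361) encodes the precursor of endothelin-1. Its FPKM was 14.4, 15.0 and 17.1 in the control libraries, 0.939, 2.14 and 1.86 in those of IGF-NS, and 2.89, 2.69 and 2.93 in those of PDGF-NS (15.5 ± 1.44, 1.65 ± 0.628 and 2.84 ± 0.127, SD, n = 3). Every treated library lay far under the lowest control library, and all PDGF-NS libraries lay above all IGF-NS libraries. The log2 difference from control was -2.67 ± 0.19 (SE, adjusted p = 3e-05, 95% interval -3.09 to -2.25) in IGF-NS, where only 25 of the 11376 tested genes had a lower value. In PDGF-NS it was -2.10 ± 0.19 (adjusted p = 3.7e-05, 95% interval -2.52 to -1.68), with 70 genes lower. The difference between the treated sets, 0.57 ± 0.19 higher in PDGF-NS on the log2 scale, did not pass the test (adjusted p = 0.070, 95% interval 0.15 to 0.98). Without IGF-NS replicate 2 it was 0.70 and passed (adjusted p = 0.046), so that call turned on 1 library.

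The endothelium is the other vessel cell that makes endothelin-1, so its markers were set beside Edn1. The summed level of 10 endothelial markers was 2.31 to 3.74 FPKM in control, 2.41 to 2.78 in the IGF-NS libraries and 2.67 to 3.82 in the PDGF-NS libraries, most of it from EGFL7. The defining markers Cdh5, Kdr, Emcn and Cldn5 were listed at 0 in all 9 libraries, though a listed 0 can be a failed estimate in this table. The part of endothelial cells in the Edn1 levels was not tested.

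The Edn1 promoter is shown because the transcript had the largest fall among the 7 genes and because its window held the most of the motifs searched. RefSeq's promoter table (build GRCr8) matched 6 of the 7 genes, all but Agt. The 250 bases before the annotated start of Edn1 lie at chr17:22666688-22666937 on the minus strand. They are given 5′ to 3′ on the gene's strand, with capitals marking, in order, a GATA motif on the opposite strand, an AP-1-like motif and a TATA box.
Edn1: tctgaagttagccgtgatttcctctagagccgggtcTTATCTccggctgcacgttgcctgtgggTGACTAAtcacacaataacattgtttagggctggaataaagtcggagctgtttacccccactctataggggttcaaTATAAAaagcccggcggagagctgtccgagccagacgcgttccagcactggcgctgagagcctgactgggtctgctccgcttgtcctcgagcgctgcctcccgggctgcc
The GATA motif (searched as AGATAA) lay 214 to 209 bases before the start, the AP-1-like TGACTAA 186 to 180 bases and the TATA box (TATAAA) 110 to 105 bases before it. Over 33469 promoter windows of the same length, on both strands, 10.3% held AGATAA, 1.99% held TGACTAA and 12.9% held TATAAA. The letters TGACTAA were chosen after the Edn1 window had been read; the usual AP-1 letters TGANTCA, in 6.34% of windows, were not in it, nor was the CArG box, in 1.5%. No 2 of the marked motifs overlap. These are letter matches, and no binding was measured.

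Ece1 (ENSRNOG00000014241) encodes the membrane protease that releases active endothelin-1. Its FPKM was 19.6, 20.4 and 23.0 in the control libraries, 10.8, 12.1 and 21.0 in those of IGF-NS, and 34.0, 33.9 and 33.4 in those of PDGF-NS (21.0 ± 1.76, 14.6 ± 5.56 and 33.8 ± 0.326, SD, n = 3). All PDGF-NS libraries lay above all others and within a narrow band, while IGF-NS spread widely, its replicate 3 lying inside the control range. The log2 difference between PDGF-NS and IGF-NS, 1.21 ± 0.21, passed the test (adjusted p = 0.0031, 95% interval 0.75 to 1.67), a 2.31-fold ratio of mean FPKM. PDGF-NS against control gave 0.66 ± 0.21 (adjusted p = 0.034, 95% interval 0.20 to 1.12), a 1.61-fold ratio. That call was lost under 10 of 19 alternative settings, among them leaving out any 1 of the 6 libraries compared, with adjusted p from 0.052 to 0.087. IGF-NS against control gave -0.55 ± 0.21 and did not pass (adjusted p = 0.079, 95% interval -1.01 to -0.09). Without IGF-NS replicate 3 it was -0.82 (adjusted p = 0.0027), and after median ratio scaling and quantile normalization it was -0.70 and -0.68 (adjusted p = 0.035 and 0.038).

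Ednra (ENSRNOG00000012721) encodes the type A endothelin receptor, the constrictor receptor of smooth muscle. Its FPKM was 6.99, 6.73 and 6.27 in the control libraries, 47.4, 43.3 and 41.6 in those of IGF-NS, and 68.6, 74.4 and 61.2 in those of PDGF-NS (6.66 ± 0.363, 44.1 ± 2.93 and 68.1 ± 6.58, SD, n = 3). The 3 sets did not overlap, with control lowest and PDGF-NS highest, and the replicates of a set lay close together. The log2 difference from control was 2.56 ± 0.12 in IGF-NS (adjusted p = 3.1e-06, 95% interval 2.29 to 2.82), with 21 of the tested genes higher. In PDGF-NS it was 3.17 ± 0.12 (adjusted p = 4.3e-07, 95% interval 2.90 to 3.43), with 32 genes higher. PDGF-NS exceeded IGF-NS by 0.61 ± 0.12 on the log2 scale (adjusted p = 0.0064, 95% interval 0.35 to 0.88), a 1.54-fold ratio of mean FPKM. These 3 calls held under every alternative setting run, with log2 differences of 2.07 to 2.71, 2.64 to 3.33 and 0.48 to 0.69.

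**Figure D2:**
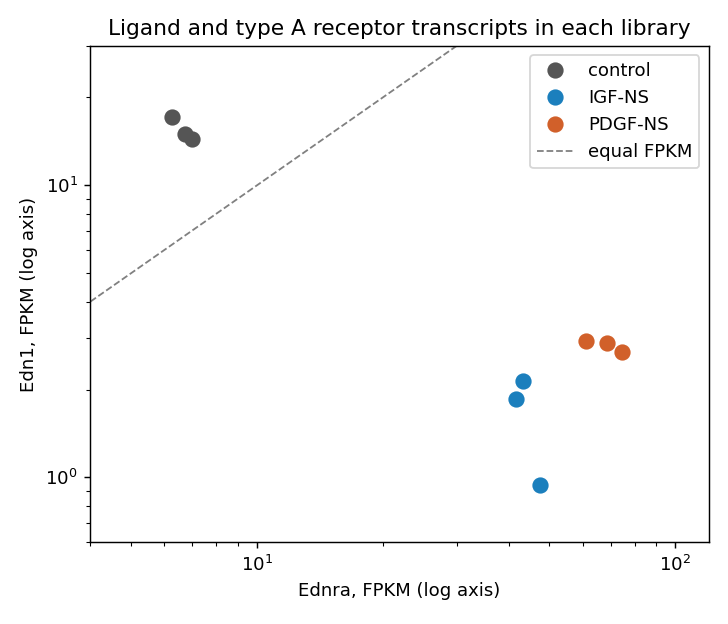
Edn1 FPKM (y axis, log scale) against Ednra FPKM (x axis, log scale) in each of the 9 libraries, coloured by set; the dashed line marks equal FPKM. The 3 control libraries lie above the line, at 2.06 to 2.73 Edn1 per Ednra, and the 6 treated libraries lie far below it.

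Set against each other within a library, the ligand transcript outnumbered the receptor transcript only in control. Edn1 FPKM per Ednra FPKM was 2.06, 2.24 and 2.73 in the control libraries, 0.0198, 0.0494 and 0.0446 in those of IGF-NS, and 0.0421, 0.0362 and 0.0478 in those of PDGF-NS. Turned around, a control library had 0.366 to 0.486 Ednra FPKM per Edn1 FPKM and a treated library 20.3 to 50.5. Against control the mean log2 ratio differed by -6.05 in IGF-NS and by -5.80 in PDGF-NS, and the control and treated libraries did not overlap. A two-sided exact permutation test gave p = 0.1 for each, the smallest p that 3 against 3 libraries can give. Between the treated sets the libraries overlapped, with a log2 difference of 0.247 (exact permutation p = 0.9).

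Ednrb (ENSRNOG00000010997) encodes the type B endothelin receptor. It was listed at 0 in all 3 control and all 3 IGF-NS libraries and at 1.03, 1.56 and 4.71 FPKM in PDGF-NS. PDGF-NS replicate 3 held the most, and no PDGF-NS library overlapped with any other. Its mean over the 9 libraries, 0.811 FPKM, left it under the filter on low values. Tested without that filter, its log2 difference was 1.63 ± 0.31 against control (adjusted p = 0.0070) and 1.63 against IGF-NS (adjusted p = 0.012), and an exact permutation test gave p = 0.1, the smallest possible, for both. Ednrb entered that unfiltered test only through its PDGF-NS values, and the control and IGF-NS sets had no spread. No conclusion is therefore drawn from these p-values. No fold is given against sets listed at 0, and in this table a listed 0 can be a failed estimate: 31 genes with a median over 5 FPKM were at 0 in some library. Ednra remained the far more abundant of the 2 receptors: Ednrb made up 1.48%, 2.05% and 7.14% of their summed FPKM in the PDGF-NS libraries.

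Markers of other cell types were read in the same libraries. The endothelial sum given above did not separate PDGF-NS from the other sets. The summed level of 6 macrophage and leukocyte markers was 9.41, 1.48 and 2.13 FPKM in PDGF-NS replicates 1, 2 and 3, against 0.133 to 0.481 in control and 0.124 to 0.927 in IGF-NS, with Ptprc, Cd163 and Tyrobp at 0 in all 9. Cd68 made up most of the PDGF-NS sum, at a mean of 4.30 FPKM, with Csf1r at 0.0442 and Itgam at 0. The summed level of 5 pericyte markers was 146 to 163 FPKM in PDGF-NS, wholly above control (57.8 to 79.2) and IGF-NS (81.2 to 96.7). Most of it was ABCC9, which rose in PDGF-NS (log2 1.35, adjusted p = 8.3e-05), and Higd1b was at 0. Kcnj8, the other tested marker of that list, averaged 16.1, 29.5 and 14.5 FPKM in control, IGF-NS and PDGF-NS and passed in no contrast. Cardiomyocyte markers (6 genes) summed to 514 to 864 FPKM in control and at most 112 FPKM in the treated libraries. Most of that sum was Pln, which smooth muscle also expresses, and Myh6 was at 0. For 4 neural and Schwann markers the sums were 0.147 to 0.26, 0.346 to 1.83 and 0.985 to 1.52 FPKM in control, IGF-NS and PDGF-NS, with Sox10 at 0 in all 9. The part of any of these markers' cells in the Ednrb signal was not tested.

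The Ednrb promoter is shown because Ednrb was listed in 1 set alone. Its 250 bases before the annotated start lie at chr15:87086766-87087015 (GRCr8) on the minus strand, are given 5′ to 3′ on the gene's strand, and held none of the motifs searched, so no letter is in capitals.
Ednrb: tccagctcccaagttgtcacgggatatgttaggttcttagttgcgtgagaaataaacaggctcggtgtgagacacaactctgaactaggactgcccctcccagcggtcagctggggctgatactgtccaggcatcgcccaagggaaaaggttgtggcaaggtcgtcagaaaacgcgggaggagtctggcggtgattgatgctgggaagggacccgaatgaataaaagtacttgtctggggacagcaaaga
That result says only that those letters are not in this window. GC content was 53.2% here and 56.4% in the Edn1 window, against a median of 51.2% over all windows, and 69.2% in the Ece1 and Ace windows.

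Agt (ENSRNOG00000018445) encodes angiotensinogen, the substrate from which all angiotensins are cut. It was listed at 0 in 7 of the 9 libraries and at 0.113 and 0.0698 FPKM in IGF-NS replicates 2 and 3. Multiplied by the relative depth of their libraries, the 2 values were 0.0813 and 0.081, nearly the same amount of signal. Tested without the filter on low values, the log2 difference between IGF-NS and control was 0.08 (adjusted p = 0.27). Agt entered that unfiltered test only through its IGF-NS values, and the control set had no spread. No conclusion is therefore drawn from this p-value.

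Agtr1a (ENSRNOG00000018346) encodes the main rodent form of the type 1 angiotensin receptor. Its FPKM was 1.27, 0.852 and 1.25 in the control libraries, 4.92, 4.24 and 4.07 in those of IGF-NS, and 4.07, 4.18 and 3.89 in those of PDGF-NS (1.13 ± 0.237, 4.41 ± 0.449 and 4.05 ± 0.148, SD, n = 3). Both treated sets lay wholly above control and overlapped with each other. The log2 difference from control was 1.35 ± 0.15 in IGF-NS (adjusted p = 0.00032, 95% interval 1.01 to 1.69) and 1.25 ± 0.15 in PDGF-NS (adjusted p = 0.00024, 95% interval 0.91 to 1.59). These were less extreme than for Ednra, with 181 and 496 tested genes higher. Between the treated sets the difference was -0.10 ± 0.15 (adjusted p = 0.73, 95% interval -0.44 to 0.24), which leaves room for a difference of either sign. Reads of the near-identical paralog Agtr1b could have been split between the 2 genes, so the level of Agtr1a is uncertain to that extent; Agtr1b was listed at 0 in 8 libraries and at 0.0455 FPKM in PDGF-NS replicate 2.

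The endothelin receptor transcript exceeded the angiotensin receptor transcript in every library. Ednra FPKM per Agtr1a FPKM was 5.49, 7.89 and 5.01 in the control libraries, 9.63, 10.2 and 10.2 in those of IGF-NS, and 16.8, 17.8 and 15.8 in those of PDGF-NS. The 3 sets did not overlap, and the log2 ratio was 0.736 higher in IGF-NS than in control and 0.746 higher in PDGF-NS than in IGF-NS (exact permutation p = 0.1 for each, the smallest possible). Ordered by mean FPKM in control, the 4 tested genes stood at Ece1, Edn1, Ednra and Agtr1a, with neighbours in that order not overlapping. In both treated sets Ednra was highest, followed by Ece1, Agtr1a and Edn1, again with no overlap between neighbours within a set.

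**Figure D3:**
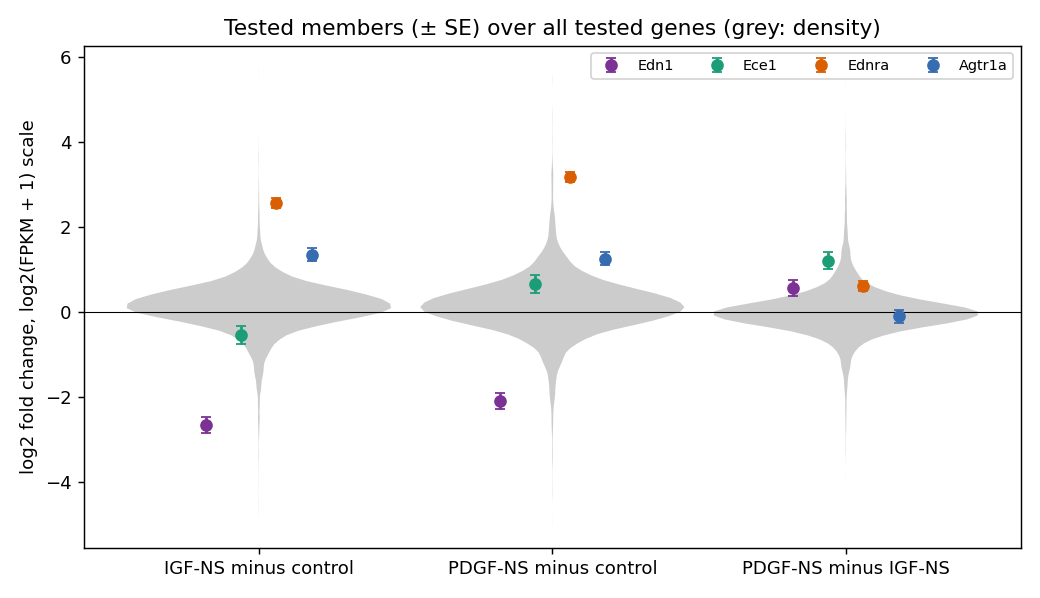
Log2 fold change on the log2(FPKM + 1) scale (y axis) for Edn1, Ece1, Ednra and Agtr1a in the 3 contrasts (x axis), as points with bars of ± SE; grey shapes show the density over all 11376 tested genes. Edn1 lies at -2.67 and -2.10 and Ednra at 2.56 and 3.17 against control, both far into the tails, while Ece1 lies at -0.55 (not called) in IGF-NS and at 0.66 in PDGF-NS.

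The genes whose profiles over the 9 libraries lay nearest to each tested gene were picked by the smallest root mean square difference of centred log2(FPKM + 1) values. Nearest to Edn1 were Pdlim1 (an actin-associated LIM protein, 0.205), Fhl2 (a LIM-only cofactor, 0.241) and Itga8 (an integrin subunit of smooth muscle, 0.247). Pdlim1 averaged 696, 117 and 133 FPKM in control, IGF-NS and PDGF-NS. Among the nearest to Ednra were Vcan (the matrix proteoglycan versican, 0.288) and Tmem26 (0.317), with Vcan at 29.6, 123 and 215 FPKM. Nearest to Ece1 were Ecm1 (0.169), the co-chaperone Bag3 (0.177) and Itga5, the fibronectin receptor subunit (0.179). Ecm1, at 76.4, 48.2 and 108 FPKM, shared the order of Ece1, lowest in IGF-NS and highest in PDGF-NS. Nearest to Agtr1a were Xrcc6bp1 (0.094), 9230110C19Rik (0.139) and the transcription factor Stat5a (0.146), with Stat5a at 4.27, 10.1 and 11.2 FPKM.

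Of 24 other genes of the 2 systems, 23 had a row and 11 were tested. Against control 4 rose and 0 fell in IGF-NS, with a median log2 difference of 0.37 over the 11, and 6 rose and 0 fell in PDGF-NS, with a median of 0.56, beside medians of 0.15 and 0.13 over all tested genes, of which 17.4% and 20.7% were called higher. Between the treated sets 5 were higher in PDGF-NS and 0 lower, with a median of 0.01; this count was 3 without any 1 treated library or control replicate 3, and the 0 that fell in IGF-NS became 1 without IGF-NS replicate 3. Anpep, aminopeptidase N, which shortens angiotensin III, averaged 7.25 ± 1.17, 22.3 ± 5.49 and 187 ± 48.2 FPKM (SD, n = 3) in control, IGF-NS and PDGF-NS. Its log2 differences from control were 1.48 ± 0.22 (adjusted p = 0.0013) and 4.48 ± 0.22 (adjusted p = 1.9e-06). Enpep, aminopeptidase A, which turns angiotensin II into angiotensin III, averaged 5.18 ± 1.33, 6.57 ± 1.14 and 45.7 ± 1.59 FPKM. It rose in PDGF-NS by 2.94 ± 0.17 on the log2 scale (adjusted p = 4.2e-06), while in IGF-NS the difference was 0.30 (adjusted p = 0.23), and the difference between the treated sets, 2.64, passed the test (adjusted p = 1.5e-05). Prcp, a carboxypeptidase that cuts angiotensin II, averaged 25.3 ± 5.71, 70.1 ± 2.38 and 99.6 ± 4.92 FPKM and rose in both sets (log2 1.46 and 1.96, adjusted p = 0.00017 and 1.5e-05).

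**Figure D4:**
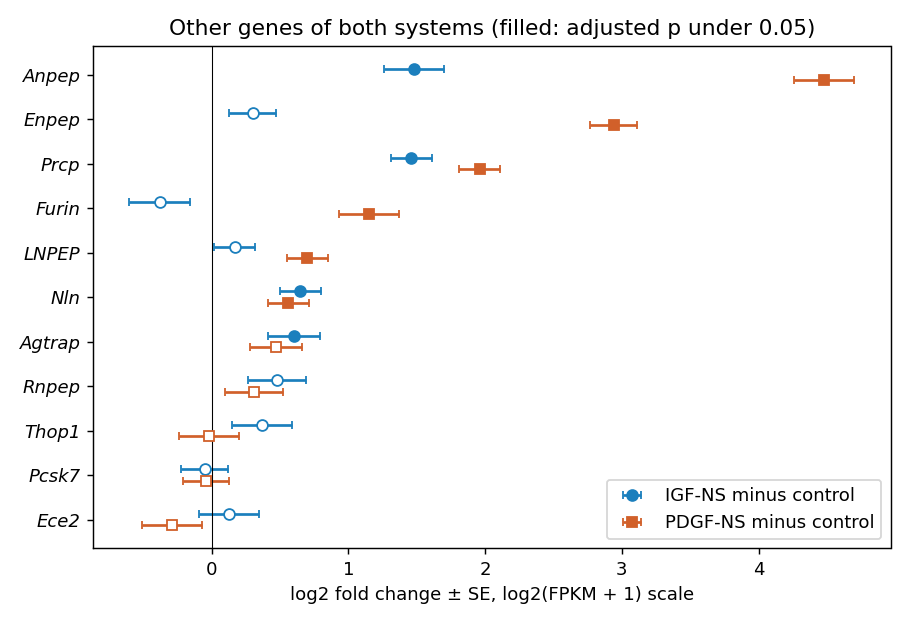
Log2 fold change ± SE on the log2(FPKM + 1) scale (x axis) for the 11 tested other genes of both systems (y axis), IGF-NS minus control as circles and PDGF-NS minus control as squares; filled symbols have an adjusted p under 0.05. Anpep (1.48 and 4.48), Enpep (0.30 and 2.94) and Furin (-0.38 and 1.15) show the widest gaps between the 2 treated sets.

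Furin, a protease that cuts the endothelin precursor, averaged 57.8 ± 11.0, 45.1 ± 14.4 and 129 ± 16.4 FPKM in control, IGF-NS and PDGF-NS. It rose in PDGF-NS (log2 1.15 ± 0.22, adjusted p = 0.0030) and was -0.38 in IGF-NS (adjusted p = 0.23), with 1.53 between the treated sets (adjusted p = 0.0011). LNPEP, the aminopeptidase that binds angiotensin IV, rose in PDGF-NS by 0.70 on the log2 scale (adjusted p = 0.0068) from 1.99 to 3.85 FPKM. Nln, neurolysin, rose in both sets (0.65 and 0.56, adjusted p = 0.013 and 0.019), the call in PDGF-NS holding under 15 of 19 alternatives and lost without PDGF-NS replicate 1 or 3 (adjusted p = 0.053 and 0.078). Agtrap, which encodes a protein that binds the type 1 receptor, rose in IGF-NS by 0.60 (adjusted p = 0.045), a call that held under 5 of 19 alternatives; without control replicate 3 the value was 0.38 (adjusted p = 0.12), and of the 9 libraries it held only with control replicate 1 left out. The calls of LNPEP (0.52, adjusted p = 0.044) and Prcp (0.50, adjusted p = 0.047) between the treated sets held under 6 of 18 and 6 of 19, and both were lost without any 1 of the 6 treated libraries (0.46 to 0.60 and 0.46 to 0.53) and without control replicate 3. Ece2, Pcsk7, Rnpep and Thop1 passed in no contrast. Among the genes listed at 0 in all 9 libraries were Edn2, Edn3, Kel, Agtr2, Cma1, Ctsg and Atp6ap2, the last a gene that nearly every cell uses, so its 0 may be a failed estimate. Mme, neprilysin, reached at most 0.255 FPKM, and Mas1 0.0671 FPKM in 1 library.

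Of 34 genes of Gq and contractile signalling, through which both constrictor receptors act, 27 were tested. Against control 1 rose and 6 fell in IGF-NS (median log2 difference -0.21), and 6 rose and 6 fell in PDGF-NS (median -0.23), while 6 were higher and 1 lower in PDGF-NS than in IGF-NS (median 0.12). Over all tested genes, 17.4% were called higher and 7.48% lower in IGF-NS, 20.7% and 10.2% in PDGF-NS, and 8.33% and 7.55% between the treated sets, with medians of 0.15, 0.13 and -0.02. Without PDGF-NS replicate 2 the 6 became 3, and the 1 that rose in IGF-NS became 0 without control replicate 2 and 2 without control replicate 3. Trpc6, a cation channel opened by receptor signalling, averaged 20.5 ± 9.20, 2.13 ± 0.0916 and 20.9 ± 3.64 FPKM (SD, n = 3) and fell in IGF-NS (log2 -2.70, adjusted p = 9.4e-05). In PDGF-NS its difference from control was 0.09 (adjusted p = 0.81), and the treated sets differed by 2.79 (adjusted p = 7.6e-05). Among the IP3 receptors of the calcium store, Itpr1 fell in both sets (-1.36 and -0.81, adjusted p = 0.00025 and 0.0025) and Itpr3 rose in PDGF-NS from 1.95 to 13.3 FPKM (2.29, adjusted p = 8.9e-06). Rock1 and Rock2, kinases that favour contraction, fell in IGF-NS (-0.99 and -1.25, adjusted p = 0.014 and 0.0023). Rock1 also fell in PDGF-NS (-0.75, adjusted p = 0.037), a call that held under 12 of 19 alternatives and was lost without control replicate 2 or 3, IGF-NS replicate 1 or any 1 PDGF-NS library (-0.77 to -0.58), while Rock2 was at -0.33 there (adjusted p = 0.25). Rgs2, a brake on Gq, and Gna13, a G protein subunit, rose in PDGF-NS (2.03 and 1.42, adjusted p = 0.0011 and 0.00013). Gna13 also rose in IGF-NS (0.65, adjusted p = 0.014; 0.54 without control replicate 2, adjusted p = 0.051), where Rgs2 was at 0.57 (adjusted p = 0.22). Ppp1r14a, an inhibitor of myosin phosphatase, fell there (-1.31, adjusted p = 0.034), a call that held under 14 of 19 alternatives and was lost without control replicate 1 or 2 or PDGF-NS replicate 1 or 2 (-1.34 to -1.08, adjusted p from 0.069 to 0.11).

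Of 22 receptors for other constrictors 12 were tested; 2 rose and 5 fell in IGF-NS (median log2 difference -0.64) and 1 rose and 3 fell in PDGF-NS (median -0.50). Between the treated sets 3 were higher and 2 lower in PDGF-NS (median 0.30). The shares over all tested genes were 17.4% higher and 7.48% lower, 20.7% and 10.2%, and 8.33% and 7.55% in the 3 contrasts. Avpr1a, the vasopressin V1a receptor, averaged 14.1 ± 3.66, 2.30 ± 0.440 and 11.9 ± 0.992 FPKM and fell in IGF-NS (log2 -2.17, adjusted p = 7.1e-05), with 1.97 between the treated sets (adjusted p = 0.00012). F2r, a thrombin receptor, was the most abundant of the named ones at 396 ± 49.0 FPKM in control and fell in both sets, to 165 ± 8.27 in IGF-NS (log2 -1.25, adjusted p = 0.00026) and 128 ± 15.4 in PDGF-NS (-1.63, adjusted p = 2.5e-05). P2ry2, a nucleotide receptor, fell in both sets (-1.34 and -1.05, adjusted p = 0.00036 and 0.00076), and Ptger3 and Htr1b, prostaglandin and serotonin receptors, fell in IGF-NS (-1.40 and -1.35, adjusted p = 0.015 and 0.00090). Without IGF-NS replicate 1 or 2 the Ptger3 call was lost (-1.23 and -1.20, adjusted p = 0.061 and 0.055). Tbxa2r, the thromboxane receptor, fell in PDGF-NS (-1.16, adjusted p = 0.0049), and Ptgfr, the prostaglandin F receptor, rose in both sets (0.95 and 1.25, adjusted p = 0.0037 and 0.00048). S1pr3, a sphingosine 1-phosphate receptor, rose in IGF-NS (1.19, adjusted p = 0.0020) and was lower in PDGF-NS than in IGF-NS (log2 -1.74, adjusted p = 0.00025), at 24.5 and 84.6 FPKM.

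Of 28 genes of relaxant pathways 12 were tested; 3 rose and 2 fell in IGF-NS (median log2 difference -0.19), 5 rose and 3 fell in PDGF-NS (median 0.20), and 3 were higher and 3 lower between the treated sets (median 0.02), beside 17.4% and 7.48%, 20.7% and 10.2%, and 8.33% and 7.55% of all tested genes. Adm, the relaxant peptide adrenomedullin, rose in both sets from 2.25 to 9.45 and 8.20 FPKM (log2 1.61 and 1.49, adjusted p = 0.0029 and 0.0028). Of the proteins that pair with its receptor, Ramp2 rose in both sets (1.07 and 1.23, adjusted p = 0.0020 and 0.00053). Ramp3 rose in PDGF-NS from 0.693 to 11.8 FPKM (2.95, adjusted p = 1.3e-05) and was at -0.48 in IGF-NS (adjusted p = 0.13), with 3.44 between the treated sets (adjusted p = 1.1e-05). At means of 0.693 FPKM in control and 0.176 in IGF-NS, Ramp3 passed the filter only through its PDGF-NS values. No conclusion is therefore drawn from its p-values, though Ramp3 is among the genes counted as higher in PDGF-NS above. Npr3, the natriuretic peptide clearance receptor, fell from 59.4 ± 15.0 FPKM in control to 27.4 ± 1.44 in IGF-NS and 5.81 ± 1.66 in PDGF-NS (log2 -1.06 and -3.15, adjusted p = 0.0057 and 7.6e-06). Gucy1b3, a subunit of the nitric oxide receptor guanylate cyclase, fell in PDGF-NS (-1.49, adjusted p = 0.00036). Prkg1, the cGMP-dependent kinase, fell in IGF-NS (-0.65, adjusted p = 0.0057) and was 1.02 higher in PDGF-NS than in IGF-NS (adjusted p = 0.00053). Its rise in PDGF-NS against control was 0.37 (adjusted p = 0.05 after rounding), a call that held under 3 of 19 alternatives. That call was lost without control replicate 1 or 2, or with any single treated library left out.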

How the data were processed

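Gene levels of 9 bulk RNA libraries (Lexogen SENSE mRNA kit v2, per the labels' protocols) were taken from the table of FPKM values that the authors deposited. GSNAP and Cufflinks were used, per the submitters' processing notes; for their versions, the genome build and the annotation, the entry is: not given in the sources used here. Gene symbols are those of the table, where 5795 rows had none. Left out were 4 genes with 10 cells holding 999999999 and 2 duplicated rows of zeros; 10199 genes were at 0 in every library. Read depth is unknown; from the steps between low FPKM values it was estimated at 0.65 to 1.33 times that of control replicate 1.

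The tool for all differences was limma 3.58.1 (R 4.3.3), fitted to log2(FPKM + 1) with 1 mean per set, all 9 libraries in the fit and a mean-variance trend, over genes that averaged 1 FPKM or more, and p-values were adjusted by Benjamini-Hochberg over all of them. The script was tested on simulated data. Sets follow the sample records through the column names they cite. The 7 genes and all lists were chosen with earlier results of these data known. Named are the 7 genes, each called gene of the other endothelin and angiotensin genes, up to 4 called genes with the largest change per contrast of each other list, and the 3 nearest profiles per tested gene; some named genes are not reported here. Alternatives were other pseudocounts, filters, scalings and variance moderation, 2 sets only, the replicate number as a block, and each library left out.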

Additional observations from a re-analysis of the deposited data

Results flagged for a closer look

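The estimates of Ece1 against control had opposite signs in the 2 treated sets (-0.55 in IGF-NS, which did not pass, adjusted p = 0.079, and 0.66 in PDGF-NS, adjusted p = 0.034, lost under 10 of 19 alternatives), and the test of the difference between the sets passed. The log2 fold change, PDGF-NS minus IGF-NS, was 1.21 ± 0.21 (limma, adjusted p = 0.0031), with all 3 PDGF-NS libraries (33.4 to 34.0 FPKM) above all 3 IGF-NS libraries (10.8 to 21.0 FPKM). IGF-NS replicate 3 lay apart from the other two of its set, and without it the difference was 1.49 (adjusted p = 0.0002).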

How the results depend on the processing

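Under 19 alternatives (18 for Agtr1a, which a mean of at least 5 FPKM left out), no difference of the 4 tested genes changed sign. The number of the 4 genes called ranged from 2 to 4 for IGF-NS against control, 3 to 4 for PDGF-NS against control and 2 to 3 between the treated sets, and with each library left out in turn from 3 to 4, 3 to 4 and 2 to 3. Edn1, Ednra and Agtr1a were called against control in every alternative that tested them, with log2 differences of -3.23 to -1.63 and -2.41 to -1.39 for Edn1 and of 0.62 to 1.89 and 0.56 to 1.78 for Agtr1a, in IGF-NS and PDGF-NS. Ece1 between the treated sets was always called, at 1.02 to 1.49. Ece1 in PDGF-NS against control was lost with no filter (adjusted p = 0.055), median ratio scaling (0.074), quantile normalization (0.068), a common sum (0.070) and without any 1 of the 6 libraries compared. With the replicate block the 3 counts were 3, 4 and 2, unchanged. Libraries with the same number deviated together no more than others (correlations of -0.276 to 0.253 for 9 pairs of the same number and -0.513 to 0.407 for 18 others). No pairing by number was detected, but so few pairs cannot show that there was none. Among the other endothelin and angiotensin genes, the count higher in PDGF-NS than in IGF-NS ranged from 3 to 5. In Gq and contractile signalling the count lower in that contrast was 1, and 3 with a common sum. Among receptors for other constrictors, those that fell in PDGF-NS were 3, and 5 with quantile normalization, and those higher in PDGF-NS than in IGF-NS were 3, and 1 with a mean of at least 5 FPKM, where the relaxant genes that rose in PDGF-NS went from 5 to 3 because fewer genes were tested. Read depth is unknown, so no interval for counting error can be given, and levels near 0, such as those of Agt and Ednrb, are the least certain.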
